A study of Mus musculus with 12 samples.

Results

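The genes described here encode the invariant signalling chains of the T cell receptor (Cd3d, Cd3e, Cd3g and Cd247), the surrogate alpha chain of the pre-T cell receptor (Ptcra) and the coreceptors (Cd4, Cd8a and Cd8b1). They were chosen by name, with earlier results of these data known, as genes whose levels mark the developmental stage of a thymocyte. All 8 of the 8 had a row of their own among the 19938 genes with 1 symbol per row on the arrays, and all 8 were bright enough on average to enter the tests across 14953 genes. Each had a single row, so no choice between rows was needed.

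The arrays held RNA from mouse thymus cells of 3 groups, all on a C57/BL6 background. There were 6 arrays of T cell lymphoma cells sorted from thymuses of TCF-1 KO mice that had become ill, at 12 to 40 weeks of age. A further 3 arrays held DN3 thymocytes sorted from TCF-1 KO mice, and 3 held DN3 thymocytes from wild-type mice, both at 8 to 12 weeks. TCF-1 is a DNA-binding factor needed for T cell development, and both KO groups carried its deletion, so the lymphomas differed from wild-type cells in genotype, in transformation and in age. Arrays are labelled as biological replicates. The kinship and sex of the mice and the design of the allele are not given in the labels, so the p-values below cover only the differences among these samples. No check of genotype on the deleted gene was made.

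As background, a thymocyte that has not yet made an alpha chain pairs its new T cell receptor beta chain with pre-T alpha, and this pre-T cell receptor signals through the CD3 chains and the zeta chain. Cells at the DN3 stage carry neither CD4 nor CD8 on their surface. A signal through the pre-T cell receptor lets them pass the beta-selection checkpoint, after which Ptcra is turned down and CD8 and CD4 appear, in mice usually CD8 first. CD8 is displayed as a dimer of alpha chains or of 1 alpha with 1 beta chain, and the beta chain needs the alpha chain to reach the surface.

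The promoters of 4 members are shown, picked after their values were seen. Cd8a carries the largest spread among tumours, Ptcra is the member that was lower in every tumour than on every DN3 array, and Cd3d and Cd3g are neighbours on chromosome 9 whose values moved apart. The sequences are from RefSeq on GRCm38.p6 and run 5′ to 3′ along the gene's strand. They reach from 250 bases before a listed start of the gene to 50 bases from it onward. For Cd3d, Cd3e and Cd247 that start is not the outer end of the gene. The Cd247 window begins at 165788431 on chromosome 1, and the gene at 165779952. Of the 8 members 6 had a promoter in that table, and Cd4 and Cd8b1 are named only. Capitals mark E-boxes (CANNTG, a palindrome, the motif of E proteins) and 2 core motifs of the TCF/LEF family (CTTTGA and CTTTGT), each searched on both strands.
Cd8a promoter, chr6:71373177-71373476, plus strand: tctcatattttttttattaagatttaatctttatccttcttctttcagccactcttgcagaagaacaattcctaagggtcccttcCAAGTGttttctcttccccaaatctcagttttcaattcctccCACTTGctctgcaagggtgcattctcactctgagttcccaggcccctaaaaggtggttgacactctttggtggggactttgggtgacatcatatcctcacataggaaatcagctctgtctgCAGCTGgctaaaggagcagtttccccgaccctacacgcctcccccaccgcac
Ptcra promoter, chr17:46763663-46763962, minus strand: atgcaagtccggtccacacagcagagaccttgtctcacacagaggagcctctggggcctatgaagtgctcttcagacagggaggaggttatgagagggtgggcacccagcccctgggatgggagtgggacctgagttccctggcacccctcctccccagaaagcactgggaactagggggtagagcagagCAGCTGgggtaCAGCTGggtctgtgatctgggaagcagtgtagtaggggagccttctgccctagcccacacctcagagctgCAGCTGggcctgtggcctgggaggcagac
Cd3d promoter, chr9:44981536-44981835, plus strand: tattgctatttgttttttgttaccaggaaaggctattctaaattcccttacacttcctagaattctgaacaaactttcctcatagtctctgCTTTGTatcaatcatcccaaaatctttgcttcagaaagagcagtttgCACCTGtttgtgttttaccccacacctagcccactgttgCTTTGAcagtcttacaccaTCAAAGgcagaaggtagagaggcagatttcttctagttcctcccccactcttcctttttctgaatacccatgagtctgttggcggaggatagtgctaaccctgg
Cd3g promoter, chr9:44980382-44980681, minus strand: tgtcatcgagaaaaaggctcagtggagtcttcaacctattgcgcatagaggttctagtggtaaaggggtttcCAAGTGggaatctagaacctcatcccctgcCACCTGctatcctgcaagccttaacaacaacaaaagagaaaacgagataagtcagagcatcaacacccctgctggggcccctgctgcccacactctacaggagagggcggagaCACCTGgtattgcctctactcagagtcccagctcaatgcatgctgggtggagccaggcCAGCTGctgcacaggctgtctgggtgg

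In these windows the Cd8a and Ptcra promoters each held 3 E-boxes and no TCF/LEF core. The Cd3d promoter held 1 E-box and 3 TCF/LEF cores, while the Cd3g promoter held 4 E-boxes and no core. Not shown are the promoters of Cd3e, with 2 E-boxes and no core, and of Cd247, with 2 E-boxes and 1 core. No matches overlapped. Among all 32851 promoters of that length, 72.3% held at least 1 E-box, 17.6% held 3 or more and 6.49% held 4 or more. A TCF/LEF core was present in 31.2% of them, and 1.14% held 3 or more. A match is a description of the letters and not a site of binding.

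The deposited values are log2 signals after RMA, a method that subtracts background, brings all arrays to 1 common distribution and summarises the probes of a gene. Array medians were between 5.30 and 5.39. The number of arrays limits the precision. The labels name no batch, but 34 rows without a gene name split the arrays into a smaller set of 4 (replicate 1 of both DN3 groups and lymphomas 1 and 2) and a larger set of 8, each group being divided in the same proportion. This was the most frequent split among such rows, and the next most frequent was seen in 26 rows. Xist, transcribed from the inactive X chromosome, stood at 4.13 to 4.40 in lymphomas 1, 2 and 6 and in TCF-1 KO DN3 replicate 3, and at 10.10 to 10.58 on the other arrays. Uty and Kdm5d, genes of the Y chromosome, stood at 5.975 to 7.12 and at 6.09 to 7.43 on the arrays with low Xist. On the other arrays they stood at 4.03 to 4.31 and at 4.38 to 4.77. By these genes the arrays with low Xist are male, and the others, among them all wild-type arrays, are female. Il2ra, the interleukin 2 receptor chain that marks the DN3 stage, stood at 9.89 to 10.62 in the lymphomas, at 10.37 to 10.88 in TCF-1 KO DN3 cells and at 10.71 to 10.77 in wild-type DN3 cells.

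**Figure D1:**
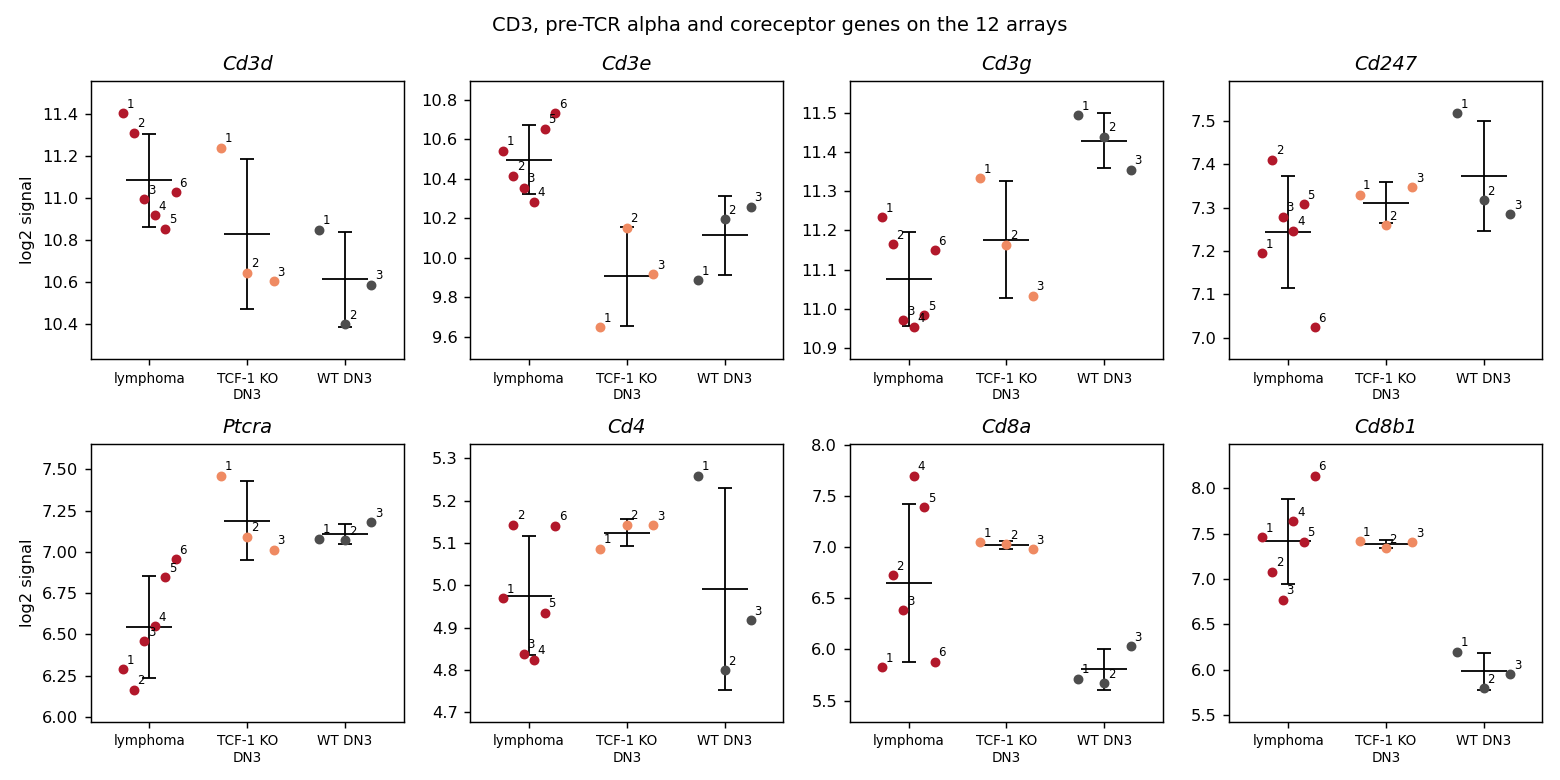
Log2 signal of the 8 genes on each of the 12 arrays, with lymphomas left, TCF-1 KO DN3 cells in the middle and wild-type DN3 cells right; numbers are replicates, bars are means and whiskers are SDs. Cd8b1 was above its wild-type range on all 9 arrays without TCF-1, and Ptcra was lowest in the lymphomas.

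The first question was how the CD3, pre-TCR and coreceptor genes of DN3 cells differed without TCF-1. Both CD8 chains rose and no other member was called. Cd8a, the chain that binds the MHC class I molecule and carries the docking site for the kinase Lck, had log2 signals of 7.05, 7.03 and 6.98 in TCF-1 KO DN3 cells, against 5.71, 5.67 and 6.03 in wild-type DN3 cells. The groups did not overlap, and the KO arrays lay close together. The difference was 1.21 (SE 0.13), a 2.32-fold rise (limma adjusted p = 0.00111).

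Cd8b1, the beta chain of the alpha-beta coreceptor, stood at 7.41, 7.34 and 7.40 in TCF-1 KO DN3 cells and at 6.20, 5.80 and 5.95 in wild-type DN3 cells. All KO arrays were above all wild-type arrays. It rose by 1.40 (SE 0.13), or 2.64-fold (limma adjusted p = 0.000455), and ranked 11th of the genes tested by p, with Cd8a at 17th. Within the smaller and the larger array set the differences were 1.34 and 1.15 for Cd8a, and 1.21 and 1.49 for Cd8b1. The call of Cd8b1 held in each of the alternatives run, with adjusted p up to 0.0105. That of Cd8a was lost with 1 fit to all 12 arrays (adjusted p = 0.129), where the spread of the lymphomas enters the error, and held in the other 16.

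Cd4, the coreceptor for MHC class II, did not move with them. It was at 5.09, 5.14 and 5.14 in TCF-1 KO DN3 cells and at 5.26, 4.80 and 4.92 in wild-type DN3 cells. These signals lay below the median of every array, and the table holds no detection call, so a true level and background cannot be told apart there. The difference was 0.13 with a 95% interval from -0.17 to 0.43 (limma adjusted p = 0.655). In bulk samples such as these, more cells with CD8 transcripts and more transcript per cell cannot be told apart.

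Ptcra stood at 7.46, 7.09 and 7.01 in TCF-1 KO DN3 cells and at 7.08, 7.07 and 7.18 in wild-type DN3 cells. Replicate 1 of the KO group was the highest, while replicate 2 was inside the wild-type range and replicate 3 below it. The difference was 0.08, with an interval from -0.22 to 0.38 (limma adjusted p = 0.801).

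Among the chains of the CD3 complex the 4 genes gave no call. Cd3g was at 11.33, 11.16 and 11.03 in TCF-1 KO DN3 cells and at 11.49, 11.44 and 11.36 in wild-type DN3 cells. The arrays of the groups did not overlap, with KO cells lower, but the difference of -0.25 (interval -0.52 to 0.01) was not called (limma adjusted p = 0.327). Cd3d differed by 0.22 (interval -0.18 to 0.62), Cd3e by -0.21 (interval -0.55 to 0.13) and Cd247, the zeta chain, by -0.06 (interval -0.32 to 0.19). Their adjusted p-values in limma were 0.582, 0.529 and 0.817. Without KO DN3 replicate 1 the difference was 0.012 for Cd3d and -0.080 for Cd3e, and leaving out each DN3 array in turn gave ranges of 0.012 to 0.34 and of -0.33 to -0.080.

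In that comparison 2 of the 8 members were called higher and 0 lower by limma, the same counts as at an unadjusted p under 0.05. Over all genes tested 1.99% were called, 0.568% higher and 1.42% lower. Arrays did not overlap for 3 of 8 members, against 22% of all genes. The median difference of the 8 members was 0.11 and that of all genes 0.03. With the replicate number as a block, which the deviations of the DN3 arrays bear out, the same count of 2 members was called, while the count over all genes was 1380 in place of 298.

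**Figure D2:**
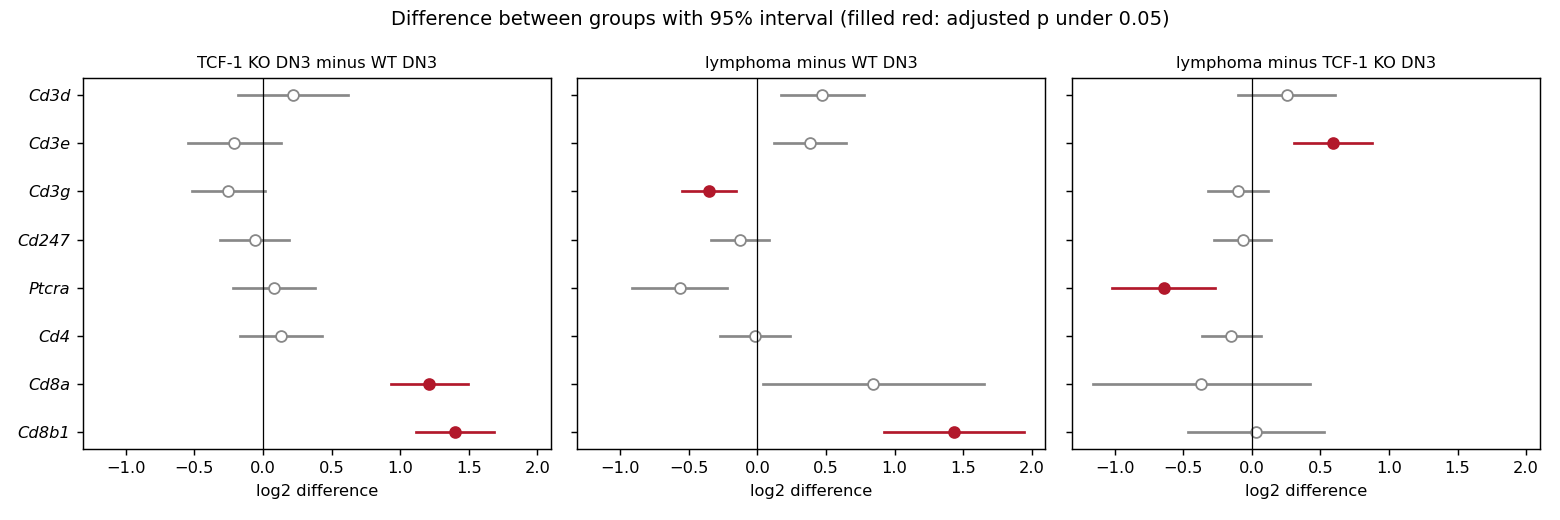
Log2 difference of each gene in the 3 comparisons (points) with its unadjusted 95% interval from limma (lines); filled red marks an adjusted p under 0.05 over all genes. The CD8 genes were the called members between the DN3 groups, Cd8b1 and Cd3g between lymphomas and wild-type DN3 cells, and Ptcra and Cd3e were called between lymphomas and TCF-1 KO DN3 cells.

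The next comparison asked how the lymphomas differed from wild-type DN3 cells. Cd8b1 was again higher and Cd3g was lower, while Cd3d and Cd3e were higher and Ptcra lower on every tumour array without passing the adjusted threshold. Cd8b1 stood at 7.46, 7.08, 6.77, 7.64, 7.41 and 8.14 in lymphomas 1 to 6, against 6.20, 5.80 and 5.95 in wild-type DN3 cells. Every tumour was above every wild-type array, lymphoma 6 by the most and lymphoma 3 by the least. The rise was 1.43 (SE 0.23), or 2.7-fold (limma adjusted p = 0.0026), with 1.07 and 1.61 within the smaller and the larger array set.

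Cd8a was at 5.82, 6.73, 6.38, 7.70, 7.39 and 5.88 in lymphomas 1 to 6, against 5.71, 5.67 and 6.03 in wild-type DN3 cells. Lymphomas 2, 3, 4 and 5 were above the wild-type range, and lymphomas 1 and 6 were inside it. The mean difference was 0.85 (SE 0.37, interval 0.04 to 1.65) and was not called (limma adjusted p = 0.292). With the level of Xist as a covariate it was 1.36 and was called (limma adjusted p = 0.0281). All wild-type arrays have high Xist, so that fit in effect sets only lymphomas 3, 4 and 5, the tumours with high Xist, against them.

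The tumours thus differed in how the CD8 chains went together. Relative to the wild-type means, lymphoma 4 had both chains up, Cd8a by 1.89 and Cd8b1 by 1.65, and lymphoma 5 had differences of 1.58 and 1.43. In lymphomas 2 and 3 they were smaller, 0.92 and 1.10 in the first of these and 0.58 and 0.79 in the second. Lymphoma 1 had a Cd8a difference of 0.02 beside a Cd8b1 difference of 1.48, and lymphoma 6 had 0.08 beside 2.15. The log2 signal of Cd8a minus that of Cd8b1, set against the wild-type mean of that quantity, was -1.46 in lymphoma 1 and -2.08 in lymphoma 6. On the other 10 arrays it stayed between -0.31 and 0.26. Those tumours fall in different array sets, and both have low Xist, as lymphoma 2 does. With the level of Xist as a covariate the mean difference from wild-type DN3 cells was 1.36 for Cd8a, as given above, and 1.28 for Cd8b1 (limma adjusted p = 0.0137). The limit stated for that fit holds for both genes. Over the 6 tumours the Pearson correlation of the CD8 genes was -0.12, a description from few points.

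**Figure D3:**
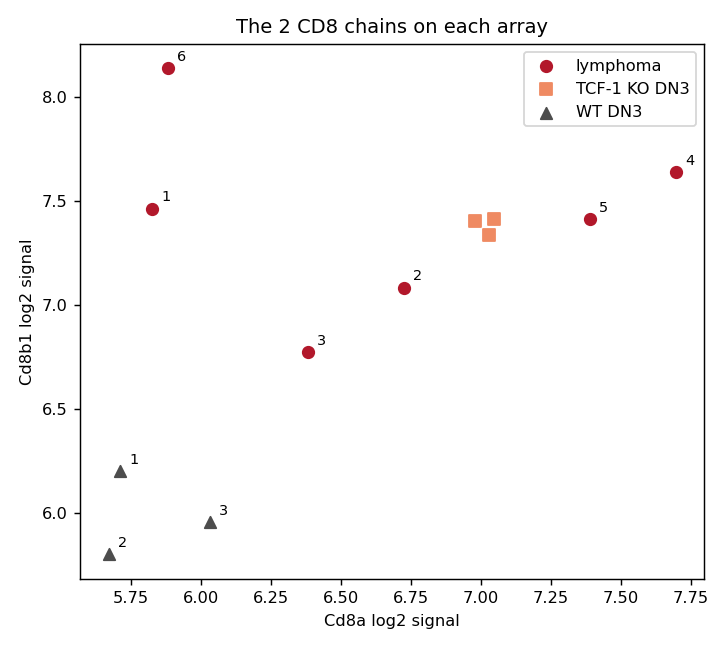
Log2 signal of Cd8b1 (vertical) against Cd8a (horizontal) on the 12 arrays; circles are lymphomas, squares TCF-1 KO DN3 cells and triangles wild-type DN3 cells, with replicate numbers for lymphomas and wild-type cells. Lymphomas 1 and 6 lie at the left with Cd8b1 at 7.46 and 8.14 and Cd8a at 5.82 and 5.88, while the other 10 arrays run from low to high in both genes.

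Spread among the tumours was large for these genes. The SD of Cd8a over the 6 lymphomas was 0.77, higher than that of 99.5% of genes tested, or as high, and that of Cd8b1 was 0.47, at 97.8%. In TCF-1 KO DN3 cells the SDs were 0.04 for both (n = 3), and in wild-type DN3 cells they were 0.20 for both (n = 3). The genes whose pattern over the 6 lymphomas was most like that of Cd8a, among 663 others with a range of at least 1 log2 unit there, were 6530409C15Rik (Pearson r = 0.98) and Ampd1 (r = 0.92), which encodes the muscle form of AMP deaminase. For Cd8b1 they were Nsg1 (r = 0.92), a neuronal endosomal protein gene, and Marcks (r = 0.90), a substrate of protein kinase C. With 6 points and this many genes searched, such values are only a description. Cd8a and Cd8b1 were the members with a range of at least 1 over the tumours.

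Ptcra stood at 6.29, 6.17, 6.46, 6.55, 6.85 and 6.95 in lymphomas 1 to 6, against 7.08, 7.07 and 7.18 in wild-type DN3 cells. All tumours were below all wild-type arrays. Lymphomas 1 and 2 were lowest, at -0.82 and -0.94 from the wild-type mean, and lymphomas 5 and 6 nearest to it, at -0.26 and -0.16. The mean difference was -0.57 (SE 0.16, interval -0.91 to -0.22) and missed the threshold (limma adjusted p = 0.063). It was -0.85 in the smaller array set, which holds lymphomas 1 and 2, and -0.42 in the larger. In a fit with the array set as a term Ptcra was called (adjusted p = 0.0179). It was also called without lymphoma 5 (-0.63, adjusted p = 0.0427) and without lymphoma 6 (-0.65, adjusted p = 0.0196).

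Within the CD3 complex the genes moved in different directions. Cd3g, the gamma chain, was at 11.23, 11.17, 10.97, 10.95, 10.98 and 11.15 in lymphomas 1 to 6 and at 11.49, 11.44 and 11.36 in wild-type DN3 cells. Every tumour was below every wild-type array. It fell by 0.35 (SE 0.09, limma adjusted p = 0.0375), a small change, and the call was lost without any 1 of the wild-type replicates 1, 2 and 3 or of lymphomas 3, 4 and 5, with adjusted p from 0.0623 to 0.168. It was also lost in the larger array set alone (adjusted p = 0.096), while the differences in the smaller and larger sets were -0.30 and -0.38.

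Cd3d, the delta chain, stood at 11.40, 11.31, 11.00, 10.92, 10.85 and 11.03 in lymphomas 1 to 6, against 10.85, 10.40 and 10.59 in wild-type DN3 cells. Every tumour exceeded every wild-type array, lymphoma 5 by less than 0.01. The highest values of each of the 3 groups came from the smaller array set. The difference was 0.47 (SE 0.14, limma adjusted p = 0.0789), at 0.51 in the smaller and 0.45 in the larger set, and with the array set as a term it was called (adjusted p = 0.00259), as it was with quantile normalisation repeated (adjusted p = 0.0443).

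Cd3e, the epsilon chain shared by both CD3 pairs, was at 10.54, 10.42, 10.35, 10.28, 10.65 and 10.73 in lymphomas 1 to 6, against 9.89, 10.20 and 10.26 in wild-type DN3 cells. The tumours were all higher, lymphoma 4 by the least. The difference of 0.38 (SE 0.12, interval 0.12 to 0.65) was not called (limma adjusted p = 0.105).

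Cd247 and Cd4 gave no separation. Cd247 ranged from 7.02 to 7.41 in the lymphomas and from 7.28 to 7.52 in wild-type DN3 cells, a difference of -0.13 (interval -0.34 to 0.08, limma adjusted p = 0.655). Cd4 ranged from 4.82 to 5.14 in the lymphomas and from 4.80 to 5.26 in wild-type DN3 cells, and all 6 tumours were inside the wild-type range. Its difference was -0.02 (interval -0.27 to 0.24, limma adjusted p = 0.983).

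Here 1 of 8 members was called higher and 1 lower (4 and 2 at an unadjusted p under 0.05), where 5.82% of all genes were called, 2.96% higher and 2.86% lower. Arrays did not overlap for 5 of 8 members, 3 higher and 2 lower, against 10.3% of all genes. The median over the members was 0.18, and -0.01 over all genes.

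**Figure D4:**
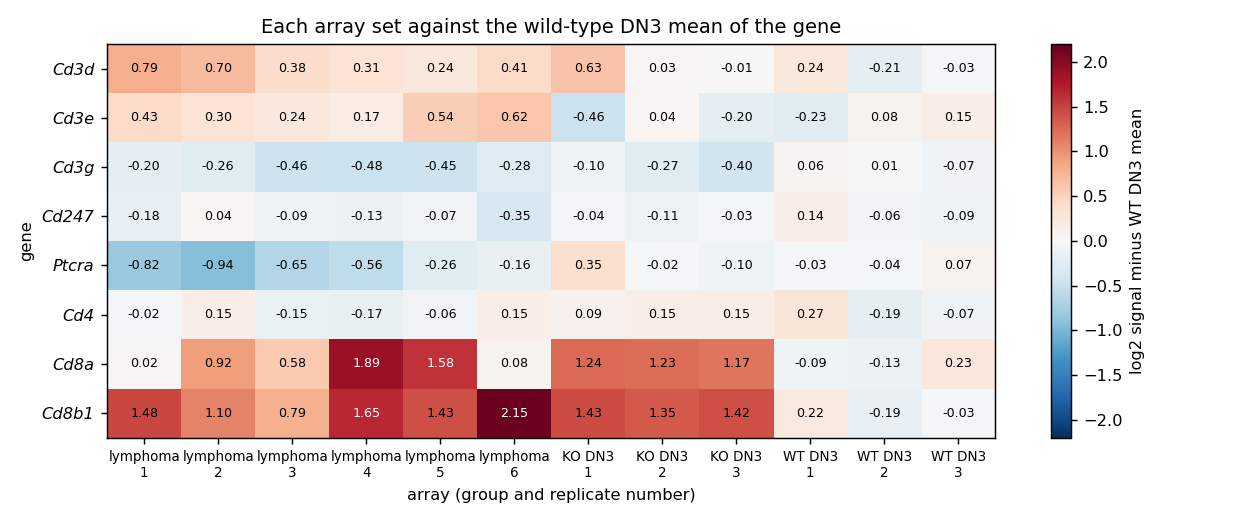
Log2 signal of each gene on each array minus the wild-type DN3 mean of that gene (numbers and colour, red above and blue below), with lymphomas left, TCF-1 KO DN3 cells next and wild-type DN3 cells right. Ptcra and Cd3g are below 0 and Cd3d, Cd3e and Cd8b1 above 0 in all 6 lymphomas, while Cd8a runs from 0.02 to 1.89.

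The last comparison set the lymphomas against TCF-1 KO DN3 cells, which share the genotype. Ptcra was lower and Cd3e higher in the lymphomas, and the CD8 genes had no common direction. Ptcra averaged 6.54 ± 0.31 in lymphomas (SD, n = 6) and 7.19 ± 0.24 in TCF-1 KO DN3 cells (SD, n = 3). The highest tumour, lymphoma 6 at 6.95, was below the lowest KO DN3 array at 7.01. Ptcra fell by 0.64 (SE 0.17, limma adjusted p = 0.047), at -1.23 in the smaller array set and -0.35 in the larger. The call was lost without any 1 of the KO DN3 replicates or of lymphomas 1 to 4, with adjusted p from 0.0626 to 0.176, and in the larger set alone (adjusted p = 0.275). It was also lost with median-centred arrays (adjusted p = 0.0621), with no filter on dim genes (adjusted p = 0.0563) and with Xist as a covariate (adjusted p = 0.0609).

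Cd3e averaged 10.50 ± 0.18 in lymphomas (SD, n = 6) and 9.90 ± 0.25 in TCF-1 KO DN3 cells (SD, n = 3), where the arrays read 9.65, 10.15 and 9.92. No tumour overlapped with them. The rise was 0.59 (SE 0.13), or 1.51-fold (limma adjusted p = 0.02), with 0.83 and 0.47 in the smaller and larger array sets. It was not called without KO DN3 replicate 1 (0.46, adjusted p = 0.096), without KO DN3 replicate 3 (0.60, adjusted p = 0.0794) or in the larger set alone (adjusted p = 0.162).

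The mean of Cd8b1 hardly differed, by 0.03 with an interval from -0.46 to 0.53 (limma adjusted p = 0.944). Individual tumours lay on both sides: lymphomas 1, 4 and 6 were above the KO DN3 range, lymphomas 2 and 3 below it and lymphoma 5 inside it. For Cd8a lymphomas 4 and 5 were above that range and lymphomas 1, 2, 3 and 6 below, with a mean difference of -0.37 (interval -1.16 to 0.42, limma adjusted p = 0.555). Against the KO DN3 mean of Cd8a, lymphoma 1 was at -1.19 and lymphoma 6 at -1.14.

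Cd3d differed by 0.26 (interval -0.10 to 0.61), Cd3g by -0.10 (interval -0.32 to 0.12), Cd247 by -0.07 (interval -0.28 to 0.14) and Cd4 by -0.15 (interval -0.36 to 0.06). None of these 4 was called by limma, with adjusted p of 0.357, 0.567, 0.692 and 0.373. In all, 1 of 8 members was called higher and 1 lower, the same counts as at an unadjusted p under 0.05. Of all genes 6.62% were called, 4.5% higher and 2.12% lower. Arrays did not overlap for 2 of 8 members, against 13.6% of all genes. The median was -0.08 for the members and -0.03 for all genes. This comparison and the one before it share the lymphoma arrays, and the first and the second share the wild-type arrays, so their values are not independent.

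Taken gene by gene over the groups, the order of the means was lymphoma, then TCF-1 KO DN3, then wild-type DN3 cells for Cd3d (11.09, 10.83 and 10.61), of which no neighbouring pair was called. For Cd3g the order was the opposite, with means of 11.08 in lymphomas, 11.18 in TCF-1 KO DN3 cells and 11.43 in wild-type DN3 cells, and here too no neighbouring pair was called. Cd8b1 had means of 7.42 and 7.38 in the groups without TCF-1 and 5.98 in wild-type DN3 cells, and the step between TCF-1 KO and wild-type DN3 cells passed the test. Ptcra had means of 6.54 in lymphomas and of 7.19 and 7.11 in TCF-1 KO and wild-type DN3 cells, and its step lay between the lymphomas and the DN3 groups.

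Other genes of the same stages give the setting, in lists chosen with earlier results of these data known. The list medians stand against all-gene medians of 0.03 between the DN3 groups, and of -0.01 and -0.03 in lymphomas against wild-type and TCF-1 KO DN3 cells. Over all genes tested, 0.568% were called higher and 1.42% lower between the DN3 groups. In lymphomas these shares were 2.96% and 2.86% against wild-type DN3 cells, and 4.5% and 2.12% against TCF-1 KO DN3 cells. They stand beside the counts of every list below. Of 26 tested genes associated with passage through beta-selection and the stages after it, 2 rose in TCF-1 KO DN3 cells against wild-type, 1 fell and 23 did not pass (list median 0.17). Those that rose were Cd2, an adhesion receptor, with a difference of 3.94 (9.55 in TCF-1 KO and 5.61 in wild-type DN3 cells, limma adjusted p = 8.03e-08), and Cd5, an inhibitory receptor set by receptor signal strength, with 0.63. The 1 that fell was Ccr9, a chemokine receptor gene, at -1.14. In lymphomas against wild-type DN3 cells 10 of the 26 rose, 3 fell and 13 did not pass, with a list median of 0.39. Itm2a, a membrane protein gene induced in thymocytes by receptor signals, rose by 2.02, Slamf6, a SLAM family receptor gene, by 1.29 and Cd2 by 4.12, and Ly6d, a surface marker of early lymphoid cells, fell by 2.32. Relative to TCF-1 KO DN3 cells 5 rose, 2 fell and 19 did not pass (median 0.16). There Itm2a rose by 1.86, Slamf6 by 0.84 and Egr1, an immediate-early factor of receptor signalling, by 0.79, and Ly6d fell by 2.39.

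Genes of the DN2 and DN3 stages numbered 18 tested. In TCF-1 KO against wild-type DN3 cells 1 rose, 3 fell and 14 did not pass (list median -0.13). Dtx1, a Notch target, rose by 0.63, while the interleukin 7 receptor gene Il7r, the stem cell factor receptor gene Kit and the terminal transferase gene Dntt had differences of -1.01, -0.69 and -0.69. In lymphomas against wild-type cells 2 rose, 6 fell and 10 did not pass (median -0.17). Called genes included the ETS factor gene Erg (-1.34), Kit (-1.03), Dntt (-0.94) and Dtx1 (0.92). With TCF-1 KO DN3 cells as the comparison 1 rose, the T lineage factor gene Gata3 by 0.89, and 2 fell, Erg at -0.96 and the recombinase gene Rag1 at -1.62. The other 15 did not pass (median -0.23).

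Rag1, like Ptcra a gene of cells that have not completed their receptor, stood at 8.67, 7.78, 8.69, 7.42, 8.65 and 9.63 in lymphomas 1 to 6, at 10.18, 10.15 and 9.93 in TCF-1 KO DN3 cells and at 10.30, 10.34 and 10.53 in wild-type DN3 cells. Lymphoma 6 was the highest tumour in both Rag1 and Ptcra. The lowest were different tumours, lymphoma 4 in Rag1 and lymphoma 2 in Ptcra. Il2ra was not called in any of the 3 comparisons in limma, with adjusted p of 0.705 between the DN3 groups and, in lymphomas, of 0.236 against wild-type and 0.397 against TCF-1 KO DN3 cells.

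**Figure D5:**
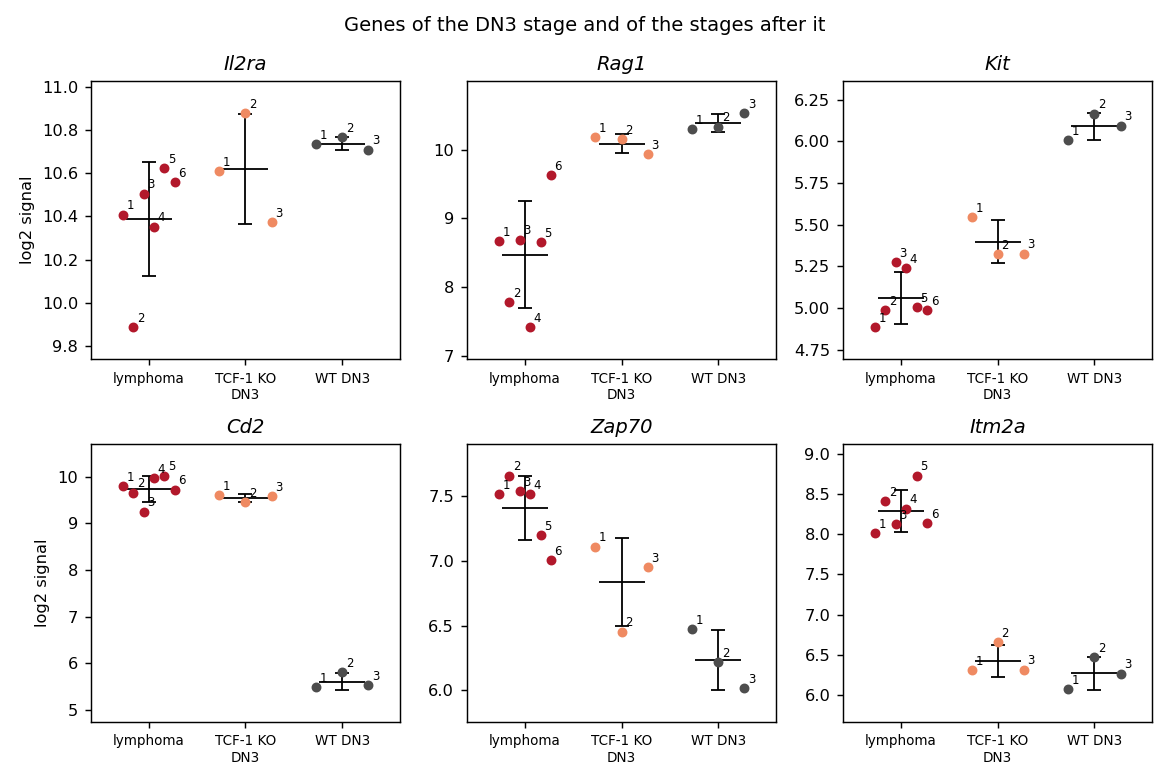
Log2 signal of 6 genes of the DN3 stage (Il2ra, Rag1, Kit) and of later stages or receptor signalling (Cd2, Zap70, Itm2a) on each array, with lymphomas left, TCF-1 KO DN3 cells in the middle and wild-type DN3 cells right; bars are means and whiskers are SDs. Cd2 is near 5.61 in wild-type DN3 cells and above 9 on all arrays without TCF-1, whereas Itm2a is raised in the lymphomas.

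Proximal signalling genes, whose products act on the CD3 and zeta tails, had 20 of 22 listed members measured and tested. In TCF-1 KO against wild-type DN3 cells 1 of the 20 rose, the kinase gene Fyn by 0.88 (limma adjusted p = 0.0359), and 19 did not pass (list median -0.14). In lymphomas against wild-type DN3 cells 4 rose, 4 fell and 12 did not pass (median 0.03). Zap70, the kinase recruited to phosphorylated CD3 and zeta chains, stood between 7.01 and 7.66 in lymphomas and between 6.01 and 6.47 in wild-type DN3 cells, and rose by 1.17 (SE 0.15, limma adjusted p = 0.00043). Fyn rose by 1.54 and Sla, an adaptor that promotes loss of receptor from the surface, by 1.01, and the ubiquitin ligase gene Cblb fell by 0.73. In lymphomas against TCF-1 KO DN3 cells 4 rose (the phospholipase gene Plcg1, the adaptor gene Tespa1, the phosphatase gene Ptpn22 and Fyn, by 0.56 to 0.92) and 16 did not pass (median 0.14). Other ITAM chains, Fcer1g and Tyrobp, had no call in the 3 comparisons in limma (0 at an unadjusted p under 0.05).

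Genes known to act on the coreceptor loci numbered 20. In TCF-1 KO against wild-type DN3 cells Ikzf3, a zinc-finger factor of the Ikaros family, rose by 1.89 and the chromatin remodeller gene Smarca4 fell by 0.72, and 18 did not pass (list median -0.04). In lymphomas against wild-type cells 5 rose, 1 fell and 14 did not pass (median 0.02). Ikzf3 rose by 3.31, Tox, an HMG-box factor of CD4 lineage development, by 0.79 and Ikzf1 by 0.72, and Smarca4 fell by 1.20. Compared with TCF-1 KO DN3 cells 4 rose, 2 fell and 14 did not pass (median 0.04), with Ikzf3 at 1.42, Gata3 at 0.89, Ikzf1 at 0.79 and Smarca4 at -0.49.

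Of 14 genes that act on Ptcra 1 was called in TCF-1 KO against wild-type DN3 cells, the E protein gene Tcf4 at -0.52 (list median -0.07). In lymphomas 4 rose against wild-type DN3 cells and 10 did not pass (median 0.03). Id2, an inhibitor of E proteins, rose by 2.44 (7.93 in lymphomas and 5.49 in wild-type DN3 cells, limma adjusted p = 0.00099), and Ikzf1, Ets1 and the E protein gene Tcf12 rose by 0.72, 0.40 and 0.41. From TCF-1 KO DN3 cells the lymphomas differed in 4 genes that rose, and 10 did not pass (median 0.22), with Id2 at 1.62, Ikzf1 at 0.79, Ets1 at 0.48 and the Notch partner gene Rbpj at 0.47. Genes of the receptor's own alpha, beta, gamma and delta chains are not analysed here.

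The nearest protein-coding gene on each side of the member loci was also read. A single gene per side cannot show whether a whole neighbourhood moved, and Pou2f1, beside Cd247, was not measured. Over all genes tested 1.99%, 5.82% and 6.62% were called in the 3 comparisons, in the order given above. Of 9 measured neighbours that are not members, 1 was called in any comparison. That gene was Creg1, beside Cd247, which was 0.54 lower in lymphomas than in wild-type DN3 cells (a difference of -0.54, limma adjusted p = 0.0377). Creg1 differed by -0.74 in TCF-1 KO against wild-type DN3 cells, not called (limma adjusted p = 0.0642), and by 0.19 in lymphomas against TCF-1 KO DN3 cells. Rmnd5a, on the far side of Cd8a, stood at 6.74 to 7.29 in TCF-1 KO DN3 cells and at 6.85 to 7.17 in wild-type DN3 cells, and Gm1070, on the far side of Cd8b1, differed by 0.19 there (limma adjusted p = 0.429). Ube4a, a ubiquitin ligase gene beside Cd3g, differed by -0.33 in TCF-1 KO against wild-type DN3 cells and by -0.36 in lymphomas against wild-type DN3 cells, values near those of Cd3g and not called (limma adjusted p = 0.231 and 0.126). Lag3, an inhibitory receptor gene beside Cd4, differed by 0.09 between the DN3 groups (limma adjusted p = 0.754). Mpzl2, an adhesion gene beside Cd3e, was at 8.86 and 9.06 in lymphomas 1 and 6, the tumours with Cd8a inside its wild-type range, and at 7.57 to 8.12 in the other tumours. It stood at 8.39, 8.51 and 7.59 in TCF-1 KO DN3 cells and at 7.98, 7.84 and 7.98 in wild-type DN3 cells.

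Markers of other cells that could enter a thymic sort were summarised as lists. The mean log2 signal of 7 measured gamma-delta T cell markers was 6.39 to 7.38 in lymphomas, 6.08 to 6.28 in TCF-1 KO DN3 cells and 5.82 to 5.87 in wild-type DN3 cells. Those ranges do not overlap. For Cd8b1 the means were 7.42 in lymphomas, 7.38 in TCF-1 KO DN3 cells and 5.98 in wild-type DN3 cells. Of these 7 markers 1 rose in TCF-1 KO against wild-type DN3 cells (Cd163l1, a scavenger receptor gene of gamma-delta cells, by 1.03), 3 rose in lymphomas against wild-type DN3 cells and 2 against TCF-1 KO DN3 cells. Their part in the CD8 and Ptcra results was not tested. The corresponding ranges for 10 B cell markers were 4.92 to 5.04, 5.20 to 5.29 and 5.05 to 5.35. For 13 myeloid and dendritic markers they were 5.27 to 5.46, 5.29 to 5.34 and 5.23 to 5.25, and for 13 NK and innate lymphoid markers 5.16 to 5.36, 5.31 to 5.45 and 5.12 to 5.24. The 12 thymic stroma markers ranged over 5.49 to 5.69, 5.71 to 5.84 and 5.64 to 5.70, and the 5 erythroid markers over 5.35 to 5.53, 5.42 to 5.63 and 5.41 to 5.51, in the same order of groups. In lymphomas against wild-type DN3 cells 2 of 7 tested B cell markers and 1 of 12 stroma markers fell, 1 of 11 myeloid and dendritic markers and 2 of 6 NK and innate lymphoid markers rose, 1 of those 6 fell, and none of the 5 erythroid markers was called by limma (0 at an unadjusted p under 0.05). Between the DN3 groups 1 of the 6 NK and innate lymphoid markers rose and no other marker outside the gamma-delta list was called by limma (1 B cell, 3 myeloid and dendritic and 3 stroma markers at an unadjusted p under 0.05). In lymphomas against TCF-1 KO DN3 cells 2 of 7 B cell markers fell, 1 of 11 myeloid and dendritic markers rose, 1 of 6 NK and innate lymphoid markers rose and 1 fell, and 1 of 12 stroma markers rose and 2 fell. None of the 5 erythroid markers was called there by limma (2 at an unadjusted p under 0.05). The part of these markers in the results was not tested.

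Set against the range of the 3 wild-type arrays, 26.1% to 30.7% of all genes tested were above it and 27.7% to 31.5% below it in each tumour. Of the 8 members 3 or 4 were above it and 2 or 3 were below it in each tumour, with 3 on each side in lymphomas 1 and 6. With 8 members these counts are given only as a description. Lymphomas 2, 3, 4 and 5 each had 4 members above it, Cd3d, Cd3e, Cd8a and Cd8b1, and lymphomas 1 and 6 had 3, lacking Cd8a. Ptcra and Cd3g were below it in all 6, and Cd247 was below it in lymphomas 1, 3, 4 and 6. Lymphomas 1 and 2 combined the lowest Ptcra with the highest Cd3d, and lymphoma 6 combined the highest Cd8b1, Cd3e and Ptcra with the lowest Cd247. Over the 6 tumours the Pearson correlation of Cd3d with Cd3g was 0.88, that of Cd3d with Ptcra was -0.74 and that of Cd247 with Cd8b1 was -0.79. The first 2 also follow the array set, whose tumours 1 and 2 were the highest in Cd3d and Cd3g and the lowest in Ptcra.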

How the data were processed

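Per the labels' protocols, sorted cells went straight into Trizol LS and a NuGEN kit for picogram amounts amplified 800 pg to 50 ng of their RNA for Affymetrix Mouse Gene 1.0 ST arrays. The authors deposited log2 signals per row. The submitters' processing notes name Partek and RMA, without versions or settings. The log base was taken as 2 from the range of the values, and the genome build is not given in the sources used here. RMA gives the arrays 1 distribution, so total RNA per cell cannot be seen.

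Of 35556 rows, 21789 had 1 gene symbol in the platform annotation, 1621 had several and 12146 had none here; 21698 were matched to RefSeq genes (GRCm38.p6). The row with the highest mean stood for a gene, and a filter at the 25th percentile of gene means (log2 4.78) removed 4985 genes. Each comparison was fitted on its 2 groups with limma 3.58.1 (lmFit and eBayes, R 4.3.3), two-sided, with Benjamini-Hochberg adjustment over 14953 genes and a call at an adjusted p under 0.05. The fit was also run on simulated data with independent errors. These held no array set and no replicate pairing, so that run does not bear on either.

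The members and lists were chosen with earlier results of these data known. Named were the members, up to 4 called genes of a list with the lowest p, Il2ra, Rag1, Cd2 and Zap70, the 2 genes most like a member whose range over the tumours was at least 1, and the neighbours. Cd163l1, the pairs of members correlated, the tumours set apart for Mpzl2 and the promoters shown were picked after their values were seen. Lck, also in that rule, is named only. Same-numbered TCF-1 KO and wild-type DN3 arrays deviated together (r = 0.51, 0.42 and 0.25), so the numbers were taken to pair them; number 1 shares the smaller array set. Alternatives covered scaling, filter, rows, variance model, all arrays in 1 fit, array set, Xist level, replicate block and leaving out each array. The deleted gene is not reported here.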

Additional observations from a re-analysis of the deposited data

How the results depend on the processing

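Between the DN3 groups the 2 called members were called in 16 of 17 alternatives, and 1 was called with 1 fit to all arrays. Over all genes 298 were called, against 1380 with the replicate block, 754 with the array set as a term, 144 in the larger set alone, 104 with Xist as a covariate, and 57 to 443 leaving out 1 array. The block changed no call of a member there.

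In lymphomas against wild-type DN3 cells 4 members were called in place of 2 with the array set as a term and 1 in the larger set alone, and 1 to 3 leaving out 1 array; over all genes 549 were called in the larger set alone and 560 to 872 leaving out 1 array, in place of 871. Against TCF-1 KO DN3 cells 1 member, Cd3e, was called in place of 2 with median-centred arrays, with no filter or with Xist as a covariate. In the larger set alone 0 were called by limma (3 at an unadjusted p under 0.05), and 0 to 2 leaving out 1 array. Over all genes 1702 were called with the array set as a term, 325 in the larger set alone and 431 to 1361 leaving out 1 array, in place of 990. With quantile normalisation repeated the split was 491 higher and 448 lower, in place of 673 and 317.

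Lymphomas and DN3 arrays with the same number did not all deviate together (r = -0.22 and -0.26 for number 2), so the numbers pair no lymphoma. With the replicate block over numbers 1 to 3 against wild-type DN3 cells, Ptcra was -0.81 (adjusted p = 0.00303) and Cd3d 0.62 (adjusted p = 0.0255), both called, and Cd3g -0.31 was not (adjusted p = 0.14). Against TCF-1 KO DN3 cells that block called Cd8a (-0.71, adjusted p = 0.0459) and not Cd3e (0.53, adjusted p = 0.0677).

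Signs turned for uncalled members near 0. Between the DN3 groups Cd247 was 0.055 with quantile normalisation repeated and 0.0019 in the larger set, and -0.11 to 0.011 leaving out 1 array; Ptcra was -0.072 in the larger set and -0.057 to 0.17 leaving out 1 array. Cd4 in lymphomas against wild-type DN3 cells was 0.076 in the larger set and -0.11 to 0.12 leaving out 1 array. Cd8b1 against TCF-1 KO DN3 cells was -0.12 with quantile normalisation repeated, -0.28 with the replicate block and -0.11 to 0.16 leaving out 1 array. The causes were not tested. Among the fits that left out 1 array, the fewest calls over all genes came without wild-type replicate 2 between the DN3 groups (57) and in lymphomas against wild-type cells (560), and without TCF-1 KO DN3 replicate 3 in lymphomas against those cells (431). The filter at the 50th percentile left Cd4 out. Low signal limits Cd4.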
